A study of Arabidopsis thaliana with 8 samples.

Results

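In Arabidopsis thaliana seedlings, 127 of 25198 listed genes had their lowest level in the fha2 mutant alone. They were chosen from the expression values: the genotype averages in chr11/17, rlt1/2 and Col each had to be at least 1 FPKM and at least 1.5 times the fha2 average, and both fha2 libraries had to lie below all 6 other libraries. FPKM is a read count per length of transcript and per depth of library, so levels of different genes can be set side by side on it. These FPKM values are not scaled by TMM, the library scaling used for the edgeR tests. The TMM factors were 0.841 and 0.895 for Col and 1.024 to 1.086 for the other libraries. Col levels in FPKM therefore sit lower beside the mutants than the edgeR fold changes place them. The 4 genotypes were homozygous fha2-/-, the double mutant chr11-/-chr17-/-, the double mutant rlt1-/-rlt2-/- and the wild type, all in the Col background, with 2 libraries of each. Messenger RNA came from 0.05 g of whole seedlings at day 11, grown on MS plates with 16 h of light and 8 h of dark at 22 °C. The labels name no allele beyond these genotypes. They are silent on whether replicate libraries derive from separate plates or plants, so each p-value measures the spread between these libraries only. The libraries held 20.962 M to 22.012 M estimated counts each (M, mega).

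ISWI complexes slide nucleosomes along DNA and space them evenly over gene bodies. In Arabidopsis CHR11 and CHR17 are the closely related ATPases that do this work, RLT1 and RLT2 are DDT-domain partners that bind them, and FHA2 carries a forkhead-associated domain, a fold that reads phosphorylated proteins. By its title the series is about a plant-specific ISWI subunit, and the rule picks transcripts whose level was lower in fha2 than in either double mutant and Col; such a transcript can also be lower in a double mutant than in Col. In whole seedlings, fewer cells of a type and less RNA per cell cannot be told apart.

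FHA2 itself was among the 127. It had 2.59 and 0.87 FPKM in fha2 libraries, 19.1 and 20.44 in those with the chr11/17 label, 19.21 and 17.59 in rlt1/2 and 16.37 and 18.07 in Col. Both fha2 libraries were far below the other 6, and 69 and 23 counts remained in them. The log2 fold change of fha2 over Col was -3.56 ± 0.255 (SE). RLT2 had 0.47 and 0.45 FPKM in rlt1/2, against 4.85 and 6.33 in Col. RLT1, listed as HB-1 AT1G28420, was reduced less, with 2.79 and 2.98 FPKM in rlt1/2, against 3.56 and 5.33 in Col (log2 fold change -0.9 ± 0.169, edgeR adjusted p = 0.00121). CHR11 was not lower in libraries with the chr11/17 label: it had 21.22 and 21.24 FPKM there, against 11.19 and 11.71 in Col, and was called higher by the edgeR quasi-likelihood test (log2 fold change 0.61 ± 0.0837, adjusted p = 2.84e-05). CHR17 had 6.04 and 6.41 FPKM there, against 3.73 and 5.2 in Col (log2 fold change 0.2 ± 0.127, adjusted p = 0.184). Transcript levels therefore do not check that label. The other 10 listed ISWI genes had adjusted p-values of 0.1 to 0.969 in fha2 against Col.

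Many of the 127 genes were short, though 58 had transcripts of at least 1000 bases. The rule did not name length, but the FPKM values it used carried a length trend, given below. The median transcript length was 907 bases, against 1706 over the 20866 genes tested, and the coding part had a median of 501 bases, against 1104. Transcripts under 1000 bases made up 69 of the 127 (54.3%), against 15.1% of all tested genes, and coding sequences of 300 bases or less made up 31 (24.4%), against 4.58%. Genes chosen by the same rule for another genotype were longer, with a median of 1657 bases for the 69 genes lowest in rlt1/2 alone, 1836 for the 2894 lowest in libraries with the chr11/17 label and 1706 for the 923 lowest in Col. Of the 31 short coding sequences, 17 belong to proteins annotated only as uncharacterized. The share of such proteins among all short coding sequences was not counted. The coding sequences of PLS, QQS and AT2G43535 are printed because they show how short these reading frames are. They are read 5′ to 3′ from the RefSeq annotation of TAIR10.1, with the start and stop codons in capitals; the deposited files hold no coordinates. PLS lies at chr4:18329189-18329299 on the minus strand with 111 coding bases. QQS lies at chr3:12349461-12349726 on the plus strand with 177 coding bases after splicing, and AT2G43535 at chr2:18071130-18071560 on the plus strand with 294 after splicing.
PLS: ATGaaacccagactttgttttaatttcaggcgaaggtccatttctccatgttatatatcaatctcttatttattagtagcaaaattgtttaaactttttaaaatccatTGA
QQS: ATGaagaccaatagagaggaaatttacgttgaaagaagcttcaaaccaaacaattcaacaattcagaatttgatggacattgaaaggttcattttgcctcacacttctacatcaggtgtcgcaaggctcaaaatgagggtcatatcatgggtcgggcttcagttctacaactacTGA
AT2G43535: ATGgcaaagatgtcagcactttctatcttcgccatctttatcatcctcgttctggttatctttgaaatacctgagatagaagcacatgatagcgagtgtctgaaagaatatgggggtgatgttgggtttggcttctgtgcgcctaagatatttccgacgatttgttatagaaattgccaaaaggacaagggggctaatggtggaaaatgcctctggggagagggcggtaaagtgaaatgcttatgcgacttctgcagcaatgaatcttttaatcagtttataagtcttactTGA

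These 3 genes encode peptides of different kinds. PLS encodes POLARIS, a peptide of the root tip that links auxin and ethylene responses. It had 0.31 FPKM in both fha2 libraries, 2.53 and 1.42 in those with the chr11/17 label, 3.07 and 3.13 in rlt1/2 and 1.02 and 0.98 in Col. The fha2 values rest on 4 counts in each library, so the depth of the fall is loosely measured (log2 fold change of fha2 over Col -1.91 ± 0.564). Within the other genotypes PLS was higher in rlt1/2 than in Col (log2 fold change 1.34 ± 0.39, edgeR adjusted p = 0.017), a call lost when any of the 4 libraries compared was left out (adjusted p 0.0602 to 0.0898) and with DESeq2 (adjusted p = 0.0678). QQS, a gene found only in Arabidopsis thaliana that affects starch content, had 1.86 and 2.31 FPKM in fha2, 29.99 and 20.59 in libraries with the chr11/17 label, 7.23 and 6.76 in rlt1/2 and 4.44 and 7.79 in Col. Its levels in rlt1/2 and Col overlapped, and those with the chr11/17 label stood above all others. The chr11/17 over Col change of QQS was 1.76 ± 0.224 (log2, adjusted p = 1.56e-05).

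AT2G43535, a knottin-like small secreted protein by its product name, had the highest Col level of the named genes among the 127. It had 37.71 and 29.79 FPKM in fha2, 372.11 and 269.58 in libraries with the chr11/17 label, 138.79 and 114.87 in rlt1/2 and 55.23 and 56.05 in Col. The 4 genotypes did not overlap. The fha2 over Col change was -0.98 ± 0.177 (log2), smaller than the chr11/17 over Col change of 2.25 ± 0.171 (log2, adjusted p = 1.45e-07). Its neighbour in gene order, AT2G43540, is also among the 127, with 14.09 and 11.82 FPKM in fha2, 77.55 and 53.96 in libraries with the chr11/17 label, 26.34 and 22.65 in rlt1/2 and 20.28 and 21.99 in Col. There were 3 other pairs of adjacent genes, AT2G07773 with AT2G07655, AT3G12030 with AT3G12040, and AT3G13435 with AT3G13437. How many such pairs any 127 genes would give was not worked out. AT3G12030 and AT3G12040 both overlap AT3G12020. With the counts of AT3G12020 added, their fha2 over Col changes were -0.16 and -0.0 in place of -0.87 ± 0.13 and -0.94 ± 0.244 (log2). AT3G13435 had 3.69 and 2.21 FPKM in fha2, 5.83 and 4.19 in libraries with the chr11/17 label, 8.58 and 8.08 in rlt1/2 and 4.27 and 5.07 in Col. AT3G13437 had 3.06 and 2.89 FPKM in fha2, 10.91 and 8.84 in libraries with the chr11/17 label, 6.67 and 5.81 in rlt1/2 and 6.19 and 6.32 in Col. Both encode uncharacterized proteins and differ in which genotype was highest. No member lay within 100 genes of FHA2 on chromosome 3, where 27 members besides FHA2 lie. That window held 196 other listed genes. As members are 127 of all 25198 listed genes, few were to be expected in it. The nearest member was S6K2, 112 genes away.

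Among genes of transcription and flowering, NRPE3B had the largest ratio of the genes with a symbol (13.42). It encodes a subunit of RNA polymerase V, the enzyme that transcribes targets of RNA-directed DNA methylation. NRPE3B had 0.07 and 0.17 FPKM in fha2, 4.78 and 5.22 in libraries with the chr11/17 label, 5.61 and 5.72 in rlt1/2 and 1.65 and 1.57 in Col. The fha2 values stand for 2 and 4 counts, and the log2 fold change of fha2 over Col was -4.15 ± 0.364. Col was also below both double mutants without overlap: NRPE3B was higher than in Col in chr11/17 by 1.34 ± 0.193 (log2, adjusted p = 4.45e-05) and in rlt1/2 by 1.53 ± 0.191 (log2, adjusted p = 6.85e-05). NRPE3B is not itself among the 18 listed genes of RNA-directed DNA methylation. Of those 18, 1 was called lower (background 8.76%) and 1 higher (background 6.33%) in fha2 than in Col.

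MAF5 encodes a MADS-box protein of the family of the flowering repressor FLC. It had 1.37 and 1.17 FPKM in fha2, 12.08 and 6.43 in libraries with the chr11/17 label, 16.49 and 15.05 in rlt1/2 and 6.35 and 6.02 in Col. The fha2 libraries were below all others (log2 fold change of fha2 over Col -2.24 ± 0.318), and rlt1/2 was above Col by 1.17 ± 0.232 (log2, adjusted p = 0.00182). ELF4, a component of the evening complex of the circadian clock, had 1.06 and 0.76 FPKM in fha2, 4.87 and 3.77 in libraries with the chr11/17 label, 2.77 and 2.45 in rlt1/2 and 3.23 and 1.59 in Col. Its rlt1/2 libraries lay inside the range of Col. ELF4 was the single clock gene among the 127: of 19 listed clock genes, 3 were called lower (background 8.76%) and 2 higher (background 6.33%) in fha2 than in Col, with a median log2 fold change of -0.03. NGA3, a B3-domain factor of the NGATHA group that shapes leaf margins and the style, had 2.06 and 1.9 FPKM in fha2, 9.49 and 7.42 in libraries with the chr11/17 label, 7.86 and 5.27 in rlt1/2 and 3.69 and 5.65 in Col. NGA3 was called higher in chr11/17 than in Col (log2 fold change 0.57 ± 0.217, adjusted p = 0.0335), but not without replicate 1 of Col (adjusted p = 0.273) or replicate 1 of chr11/17 (adjusted p = 0.25).

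Among other regulators, RAP2.6 and AT1G10585 stood far higher in libraries with the chr11/17 label than elsewhere. RAP2.6, an ethylene response factor of stress responses, had 3.24 and 1.93 FPKM in fha2, 24.57 and 32.13 in libraries with the chr11/17 label, 4.9 and 4.51 in rlt1/2 and 3.9 and 3.91 in Col. The chr11/17 over Col change of RAP2.6 was 2.57 ± 0.182 (log2, adjusted p = 7.52e-08). AT1G10585, annotated as a bHLH protein, had 0.53 and 0.29 FPKM in fha2, 68.0 and 63.68 in libraries with the chr11/17 label, 1.16 and 1.01 in rlt1/2 and 1.53 and 1.13 in Col. Most of its spread across genotypes thus came from libraries with the chr11/17 label, with a log2 fold change over Col of 5.16 ± 0.184 (adjusted p = 3.21e-10). The fha2 values of AT1G10585 stand for 12 and 6 counts, and the gene overlaps AT1G10580. With the counts of AT1G10580 added its fha2 over Col change was -0.15 in place of -1.89 ± 0.37 (log2). DREB2A, a factor of drought and heat responses, had 0.82 and 0.6 FPKM in fha2, 1.58 and 1.14 in libraries with the chr11/17 label, 2.44 and 2.35 in rlt1/2 and 0.94 and 1.32 in Col. It overlaps AT5G05420, and with those counts added its fha2 over Col change was -0.61 in place of -0.91 ± 0.311 (log2). Of the 11 tested genes of the heat shock list that holds DREB2A, 3 were higher in fha2 than in Col (background 6.33%), and the list's median log2 fold change was 0.41. LRL3, a bHLH protein of root hair growth, had 6.25 and 5.24 FPKM in fha2, 10.82 and 8.6 in libraries with the chr11/17 label, 14.97 and 12.07 in rlt1/2 and 9.53 and 8.97 in Col. LRL3 was not called in chr11/17 against Col (adjusted p = 0.27) or in rlt1/2 against Col (adjusted p = 0.219).

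**Figure D1:**
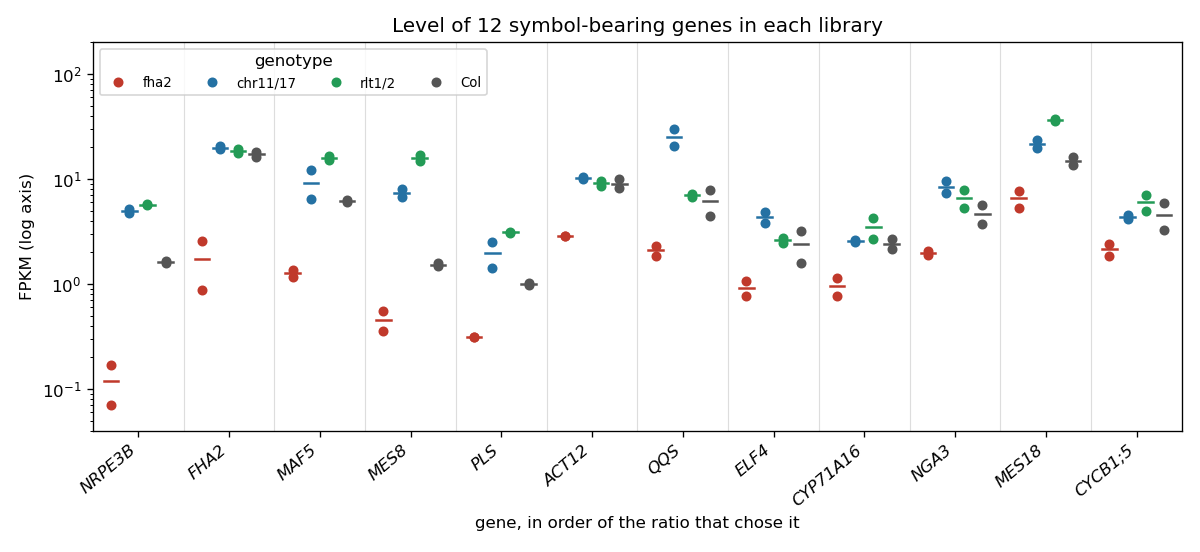
FPKM (log axis) of 12 symbol-bearing genes in each of the 8 libraries, with points for libraries and short bars for the mean of the 2 libraries of a genotype. The fha2 points are the lowest of every gene shown, which the choice of genes fixed; QQS was highest in libraries with the chr11/17 label, and MES8, MES18, MAF5 and PLS in rlt1/2.

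Among enzymes, 2 genes of the methyl esterase family, whose products remove methyl groups from small signalling molecules, shared an order of genotypes with rlt1/2 on top. MES8 had 0.36 and 0.55 FPKM in fha2, 8.0 and 6.71 in libraries with the chr11/17 label, 14.73 and 16.81 in rlt1/2 and 1.58 and 1.48 in Col. Its 4 genotypes did not overlap, and MES8 had the largest rlt1/2 over Col change of the 127 (log2 3.08 ± 0.196, adjusted p = 4.26e-07) beside a chr11/17 over Col change of 1.99 ± 0.208 (log2, adjusted p = 2.66e-06). MES18 had 7.75 and 5.31 FPKM in fha2, 19.57 and 23.58 in libraries with the chr11/17 label, 37.27 and 35.52 in rlt1/2 and 16.29 and 13.53 in Col. MES18 was higher in rlt1/2 than in Col by 1.0 ± 0.15 (log2, adjusted p = 0.000269). It overlaps AT5G58300, and with the counts of that gene added the fha2 over Col change of MES18 was -0.41 in place of -1.45 ± 0.173. Cytochrome P450 genes numbered 2 of the 127 (1.6%, against 0.9% of all tested). CYP71A25 had 1.19 and 0.88 FPKM in fha2, 1.74 and 2.04 in libraries with the chr11/17 label, 6.16 and 7.74 in rlt1/2 and 2.04 and 1.49 in Col, and was higher in rlt1/2 than in Col by 1.69 ± 0.209 (log2, adjusted p = 6.39e-05). CYP71A16, which oxidises a triterpene in roots, had 1.15 and 0.76 FPKM in fha2, 2.64 and 2.52 in libraries with the chr11/17 label, 4.26 and 2.66 in rlt1/2 and 2.67 and 2.15 in Col. The range of Col overlapped that of each double mutant. CEP2, a cysteine protease of dying tissues, had 7.42 and 7.45 FPKM in fha2, 18.72 and 17.27 in libraries with the chr11/17 label, 14.16 and 12.7 in rlt1/2 and 16.21 and 10.96 in Col.

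The cytoskeleton, the cell wall and growth control were represented by ACT12, S6K2, CYCB1;5, PELPK2 and FLA6. ACT12, an actin best known from pollen, had 2.84 and 2.89 FPKM in fha2, 10.08 and 10.4 in libraries with the chr11/17 label, 9.5 and 8.66 in rlt1/2 and 8.12 and 9.9 in Col. It was called neither in chr11/17 against Col (adjusted p = 0.434) nor in rlt1/2 against Col (adjusted p = 0.0589). The fha2 over Col change of ACT12 was -1.91 ± 0.117 (log2), and -0.31 once the counts of the overlapping AT3G46530 were added. S6K2, a protein kinase acting below TOR in growth control, had 6.45 and 4.95 FPKM in fha2, 15.97 and 14.25 in libraries with the chr11/17 label, 12.39 and 12.7 in rlt1/2 and 8.89 and 9.29 in Col. CYCB1;5, annotated as a B-type cyclin, had 2.42 and 1.86 FPKM in fha2, 4.51 and 4.18 in libraries with the chr11/17 label, 7.07 and 4.92 in rlt1/2 and 3.28 and 5.88 in Col. PELPK2, a proline-rich wall protein, had 7.66 and 6.43 FPKM in fha2, 20.25 and 23.95 in libraries with the chr11/17 label, 22.61 and 19.71 in rlt1/2 and 11.15 and 11.84 in Col. Both double mutants had more PELPK2 than Col (log2 0.66 ± 0.128, adjusted p = 0.000511 in chr11/17, and 0.59 ± 0.128, adjusted p = 0.003 in rlt1/2). FLA6, an arabinogalactan protein, had 1.36 and 1.05 FPKM in fha2, 2.36 and 1.52 in libraries with the chr11/17 label, 2.17 and 2.38 in rlt1/2 and 2.44 and 1.72 in Col, with overlap among the last 3.

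Protein turnover gave 6 of the 127 genes by product name (4.7%, against 3.7% of all tested). AT1G53790, an F-box protein, had 0.95 and 0.69 FPKM in fha2, 7.62 and 6.84 in libraries with the chr11/17 label, 4.62 and 4.93 in rlt1/2 and 1.75 and 2.22 in Col. Its 4 genotypes did not overlap, and it was higher than in Col in chr11/17 by 1.59 ± 0.167 (log2, adjusted p = 2.69e-06) and in rlt1/2 by 0.98 ± 0.172 (log2, adjusted p = 0.000799). AT1G73120, another F-box protein, had 4.96 and 4.44 FPKM in fha2, 24.18 and 25.62 in libraries with the chr11/17 label, 15.72 and 10.01 in rlt1/2 and 10.79 and 8.71 in Col. Genes whose RefSeq product name is uncharacterized, hypothetical or unknown were the largest group. They made up 37 of the 127 (29.1%, against 7.7% of all tested, not matched for length). SRO5 and RAP2.6 carry such a product name although their symbols are well known. AT5G36925 of this group had 0.68 and 0.32 FPKM in fha2, 7.38 and 6.75 in libraries with the chr11/17 label, 3.36 and 2.28 in rlt1/2 and 1.06 and 1.76 in Col. A symbol was attached to 29 of the 127 (22.8%, against 43.6% of all tested).

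DOT2, a SART-1 family splicing factor, sat at the edge of the rule with a ratio of 1.502. It had 17.8 and 17.68 FPKM in fha2, 34.63 and 30.26 in libraries with the chr11/17 label, 31.01 and 23.03 in rlt1/2 and 22.7 and 30.6 in Col. The others just inside were AT5G48290 with a ratio of 1.502 and AT5G60030 with 1.503. Just outside lay AT5G06610 with a ratio of 1.497, CDT1 with 1.493 and ELI3-1 with 1.491. No gap separates these from the genes inside.

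Over all 127 genes, levels ranged from an average of 1.0 to 155.7 FPKM in Col, and the median average was 2.26 FPKM in fha2, 9.26 in libraries with the chr11/17 label, 6.41 in rlt1/2 and 4.33 in Col. These are FPKM without TMM scaling, so Col is low beside the edgeR changes. The fold change of fha2 over Col was used by the rule and is given as a description: its median was -1.07 on the log2 scale, from -8.12 to -0.82, with 76 genes past -1 and 8 past -2. By the edgeR test, 99 of the 127 (78.0%) were lower in fha2 than in Col, against 8.76% of all tested genes, which the rule fixed in direction. That count was 36 without replicate 2 of fha2 and 61 without replicate 2 of Col. Lower in fha2 than in chr11/17 were 124 (97.6%, background 35.0%), with a median of -1.78, and lower than in rlt1/2 were 115 (90.6%, background 20.9%), with a median of -1.33. The Col libraries are shared by the comparisons of each mutant with Col, so those comparisons are not independent of each other. In the authors' deposited table, made from the same libraries, all 127 had a negative fha2 over Col change, a direction that the rule fixed. Of these, 63 had a q-value under 0.05. The share of all genes under that limit in the deposited table was not counted. FHA2 stood at -3.58 there on the log2 scale.

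Whether the low level in fha2 was seen again in a library not used to choose the gene was read by applying the rule to replicate 1 alone and looking in replicate 2. Replicate 1 chose 143 genes, of which 109 (76.2%) were also lowest in fha2 in replicate 2, against 14.8% of the genes at that level. Replicate 2 chose 208, of which 139 (66.8%) were lowest in fha2 in replicate 1, against 9.98%. The ratio of 1.5, a narrower condition, was met again by 53 of 143 (37.1%, background 1.17%) and 48 of 208 (23.1%, background 0.743%). Of the genes chosen from a single replicate, 51.7% (replicate 1) and 43.8% (replicate 2) are among the 127, so these shares describe the rule more than the 127 themselves. The libraries are also those that the rule used. Both fha2 libraries carried the same length trend, given below, and the background was not matched for length.

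The comparisons that leave fha2 out show where the 127 genes stood in the other genotypes, within the bound that the rule sets on each level. In chr11/17 against Col, 59 were higher (46.5%, background 34.8%) and 3 were lower (2.36%, background 34.4%), with a median log2 fold change of 0.48, against -0.01 for all tested genes. In rlt1/2 against Col, 27 were higher (21.3%, background 18.7%) and 4 were lower (3.15%, background 18.7%), with a median of 0.03, against 0.01 for all tested genes. The share higher in rlt1/2 is near the background. It was 16 genes without replicate 1 of Col and 14 without replicate 1 of rlt1/2. In chr11/17 against rlt1/2, 57 were higher (44.9%, background 29.3%) and 9 were lower (7.09%, background 30.1%). Few genes were lower than Col in either double mutant; a gene lower there than Col would have needed a lower fha2 level still. Higher in both double mutants than in Col were 18 (14.2%, beside 3138 of all 20866 tested genes, a near-equal share), and 59 were higher in neither (46.5%, against 61.5%). The next shares use FPKM averages without TMM scaling, which set Col low. The highest average lay in libraries with the chr11/17 label for 93 genes (73.2%), in rlt1/2 for 31 (24.4%) and in Col for 3 (2.36%). Over the 16367 tested genes with at least 1 FPKM in these 3 genotypes the shares were 48.0%, 31.5% and 20.5%, and over the 2368 of them under 1000 bases chr11/17 was highest in 1481 (62.5%), rlt1/2 in 474 and Col in 413.

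**Figure D2:**
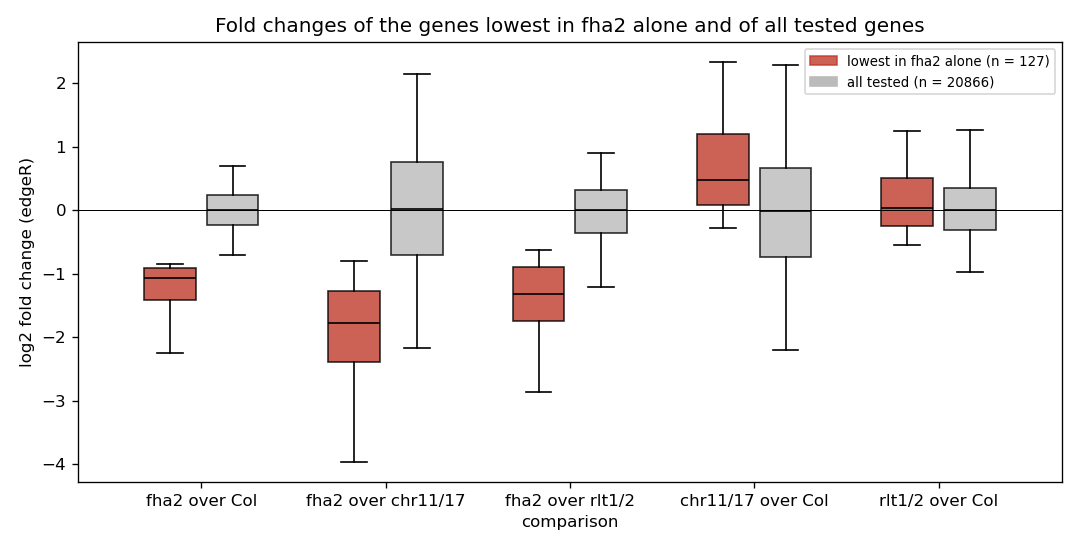
Log2 fold changes of the 127 genes lowest in fha2 alone (left box of each pair) and of all 20866 tested genes (right box) in 5 comparisons; boxes span the quartiles with the median as a line, and whiskers run between percentiles 5 and 95. The 3 fha2 comparisons were used by the rule; the chr11/17 over Col median of the 127 was 0.48 and the rlt1/2 over Col median 0.03.

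Transcript length moved with genotype over the whole transcriptome. In fha2 over Col the median log2 fold change of all tested genes was -0.38 for transcripts under 600 bases and 0.11 for those of 2500 bases or more. In fha2 over chr11/17 those medians were -0.95 and 0.46, and in fha2 over rlt1/2 -0.5 and 0.2. In chr11/17 over Col the trend ran the other way, with 0.51 for the shortest and -0.36 for the longest transcripts. Both fha2 libraries were on the same side: expressed genes under 1000 bases, on the scale of log2(FPKM + 0.1), deviated from their own mean over the 8 libraries by a median of -0.29 and -0.32 in fha2, 0.39 and 0.31 in libraries with the chr11/17 label, 0.08 and -0.02 in rlt1/2 and -0.07 and -0.06 in Col. The 127 genes, which the rule held to a low fha2 value whatever their length, had a fha2 over Col median of -1.09 under 600 bases and -0.87 at 2500 bases or more. When the length trend of each library was removed before the rule was applied, 87 genes were chosen, 71 of them among the 127 (55.9% of the 127 and 81.6% of the 87). The 87 had a median length of 1486 bases, and 26 (29.9%) were under 1000 bases. Of the 29 genes with a symbol 22 remained, FHA2, NRPE3B, MAF5, MES8, PLS, ACT12, QQS, ELF4, NGA3 and MES18 among them. FLA6, CLE5, EMB1687, PELPK2, RAP2.6, WRKY40 and LRL3 did not remain.

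**Figure D3:**
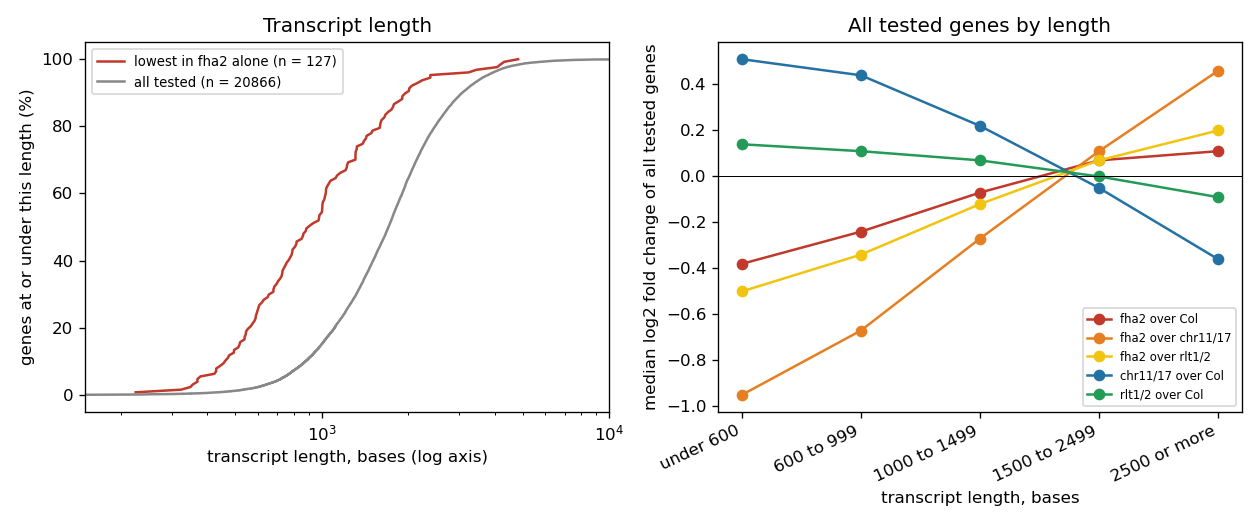
Left, the share of genes (%) at or under each transcript length (bases, log axis) for the 127 genes and for all 20866 tested genes. Right, the median log2 fold change of all tested genes in 5 classes of transcript length; the fha2 comparisons run from below 0 for the shortest class to above 0 for the longest, and chr11/17 over Col from 0.51 to -0.36.

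The sources used here do not give whether counting used the strand, and to which of 2 overlapping genes a read belongs was not tested. Of the 127 genes, 52 (40.9%) overlap another listed gene, against 27.3% of all tested genes. Alone, these 52 had a median fha2 over Col log2 fold change of -1.06, and with the counts of the overlapping genes added it was -0.31, with 6 above 0 at 2 decimals and 16 still past a ratio of 1.5. A sum of this kind moves towards the change of the more abundant gene. AT3G63215, an uncharacterized short gene inside AT3G63210, had the most extreme value: 0 counts in both fha2 libraries, 77 and 74 in those with the chr11/17 label, 20 and 4 in rlt1/2 and 13 and 46 in Col. With 3 counts over both fha2 libraries as the limit for a count of 0, AT3G63215 was at least 50.3-fold lower in fha2 than in chr11/17, 7.78-fold lower than in rlt1/2 and 24.2-fold lower than in Col, for counting error only. With AT3G63210 added its fha2 over Col change was 0.13 on the log2 scale. SRO5, a gene of salt and oxidative stress responses, overlaps the proline catabolism gene AT5G62530, and the pair is a textbook case of overlapping antisense transcripts. SRO5 had 6.82 and 5.41 FPKM in fha2, 41.3 and 22.46 in libraries with the chr11/17 label, 20.47 and 11.94 in rlt1/2 and 6.85 and 14.37 in Col. Replicate 1 of fha2 and replicate 1 of Col were nearly level, the SRO5 fha2 over Col change was -1.04 ± 0.37, and with AT5G62530 added it was 0.02.

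**Figure D4:**
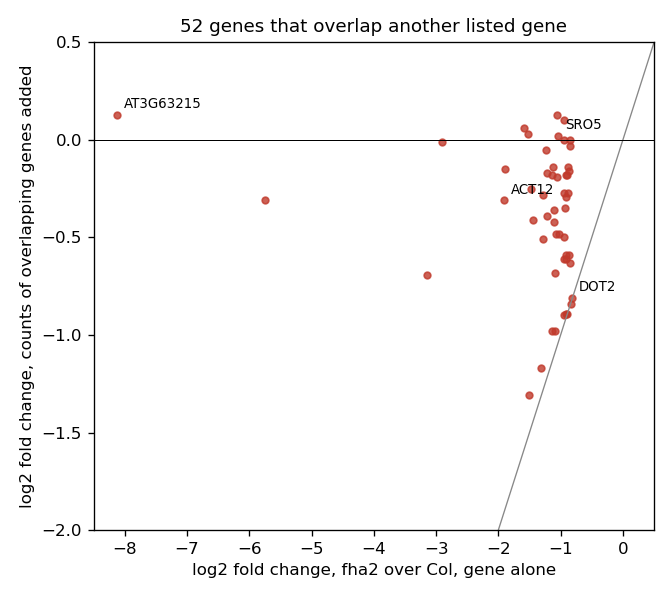
Log2 fold change of fha2 over Col for each of the 52 genes that overlap another listed gene, from its own counts (horizontal axis) and with the counts of the overlapping genes added (vertical axis); the slanted line marks equal values. ACT12 moved to -0.31 and SRO5 to 0.02, while DOT2 stayed at -0.81.

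Near-identical copies, here at least 95% identity over at least 50% of the transcript, existed for 17 of the 127 (13.4%), against 2.73% of all tested genes. For most of the 17 the copy was the overlapping gene at the same place, as with AT3G63215 and AT3G63210. This share is therefore not separate from that of the overlapping genes. SAP130b, a subunit of the splicing factor SF3b that was singled out after its values were seen, had averages of 2.845 FPKM in fha2 and 4.325 in Col. Its copy SAP130a ran the other way, with 8.955 FPKM in fha2 and 4.87 in Col. The other copies that are neither members nor overlapping were also higher in fha2 than in Col. Averages in fha2 and Col were 50.44 and 37.97 FPKM for AT4G37510, copy of AT2G48121, and 16.06 and 8.025 for AT1G27540, copy of AT1G27580. For AT1G60900, copy of AT1G60830, they were 16.31 and 13.32. These FPKM are without TMM scaling, which sets Col low. AT3G41762 and AT2G01008, copies of each other and both among the 127, ran the same way, which the rule fixed. Their averages were 3.545 and 4.665 FPKM in fha2 and 5.345 and 7.195 in Col. How reads were shared between copies was not tested. The nuclear genome also holds inserted mitochondrial DNA, with a long stretch on chromosome 2. Transcripts with over 50% of their length matching the mitochondrial genome were 9 of the 127 (7.09%), against 0.22% of all tested genes. AT2G07773, a cytochrome b-like gene of that region, had 0.53 and 0.59 FPKM in fha2, 2.73 and 2.31 in libraries with the chr11/17 label, 2.32 and 1.2 in rlt1/2 and 1.41 and 2.37 in Col. Its neighbour AT2G07655 had 1.45 and 2.43 FPKM in fha2, 8.64 and 9.09 in libraries with the chr11/17 label, 9.74 and 7.09 in rlt1/2 and 4.15 and 4.96 in Col. Of the 37 such genes that are not members, 8 were lower in fha2 than in Col (background 8.76%), with a median log2 fold change of -0.84. In the same 37, 9 were lower in rlt1/2 than in Col (background 18.7%, median -0.61). In chr11/17 against Col 8 of them were lower (background 34.4%) and 3 higher (background 34.8%), with a median of -0.22. Nuclear and mitochondrial origin of these reads cannot be told apart.

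Short sequence motifs in the 250 bases before the annotated transcript start were about as frequent in the 127 genes as in all 25197 windows of that length. The W-box TTGACC was present in 15.7% of the 127 windows and in 12.2% of all, on either strand. The site II element TGGGCC was present in 17.3% and 14.4%, the I-box GATAAG in 15.7% and 12.3%, and the G-box CACGTG in 7.1% and 6.9%. The evening element AAAATATCT was present in 2 windows, that of MAF5 among them, 1.6% of the 127, against 2.4% of all. The TATA box TATAAA was present in 48.8% and 47.0%, the dehydration-responsive core CCGAC in 13.4% and 12.2%, the auxin response element TGTCTC in 9.4% and 11.0% and the telo box AAACCCTA in 4.7% and 4.1%. The heat shock element GAANNTTC was present in 9.4% and 9.6%, and the phosphate starvation element GNATATNC in 3.1% and 5.5%. A match is a run of letters and no evidence of binding.

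Of 27 lists of pathway and cell type genes, 3 listed genes were among the 127, FHA2, ELF4 and DREB2A. Over the 415 tested list genes, 57 were lower (background 8.76%) and 51 higher (background 6.33%) in fha2 than in Col. These counts became 30 and 121 when libraries were scaled by total counts. Photosynthesis and mesophyll genes were lower in fha2 for 18 of 23 (background 8.76%), with a summed level of 145000 and 138000 FPKM in fha2, 51800 and 45200 in libraries with the chr11/17 label, 123000 and 122000 in rlt1/2 and 192000 and 182000 in Col. Flavonoid and anthocyanin genes were higher in fha2 for 10 of 14 (background 6.33%) and lower for 1. Genes of the root hair list, to which LRL3 is close in function, were lower in fha2 for 2 of 15 (background 8.76%), and cell division genes were higher for 4 of 22 (background 6.33%). The summed root tissue list was 558 and 544 FPKM in fha2, 877 and 906 in libraries with the chr11/17 label, 934 and 886 in rlt1/2 and 423 and 426 in Col. Such a sum follows the most abundant genes. By gene, 2 of the 17 root tissue genes were higher in fha2 than in Col (background 6.33%) and 0 lower. Their median log2 fold change was -0.02. The part of cell composition, and of the length trend, in the levels of the 127 genes was not tested beyond the values given.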

How the data were processed

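Per the labels, RNA from 8 Arabidopsis seedling samples in 4 genotypes was sequenced, and samples were grouped by their labels alone. The authors deposited estimated counts that need not be whole, and FPKM values per library and per genotype average; the header does not name the FPKM unit, which was recognised from the values. Per the file headers, a further deposited table gives the authors' log2 fold changes over Col with a p-value and q-value each. The submitters' processing notes list Bowtie2, RSEM, DESeq2 and TAIR10 without versions. The sources used here do not give whether counting used the strand.

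The members were taken from the FPKM values by the rule given in the text. The members, lists, families and tests were chosen with earlier results of these data known. Estimated counts were rounded, filtered with filterByExpr (20866 of 25198 genes kept, all 127 members among them), scaled by TMM and fitted for all 8 libraries together, with genotype as the only term, by the edgeR 4.0.16 quasi-likelihood test (R 4.3.3). Benjamini-Hochberg adjustment ran over all tested genes, with calls at 0.05. Fold changes are log2 with SE = |log2 fold change|/√F. Transcript lengths, overlaps, product names and sequences came from the RefSeq annotation of TAIR10.1, matched by gene ID, and copies and mitochondrial matches from BLAST+ 2.17.0 (Python 3.11.15). The longest annotated transcript of a gene was used.

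Genes are named by a rule: FHA2 and the ISWI subunits; the 14 members with a symbol and the largest ratio and the 8 with the highest Col level; members in a list; up to 4 per product family with at least 3 members; adjacent members; the 4 highest and 4 lowest called members with a symbol in each double mutant against Col; and 3 genes on each side of the ratio. Product families were matched without regard to letter case, a repair made after seeing the values, as was a change of patterns that had matched parts of other words. The lists cover ISWI subunits, photosynthesis and leaf mesophyll, root tissue, root hair, xylem and secondary wall, phloem, guard cell and stomatal lineage, trichome, shoot meristem, floral organs, seed maturation, cell division, circadian clock, auxin response, jasmonate response, salicylic acid and defence, cold and abscisic acid, heat shock, iron deficiency, phosphate starvation, nitrate response, aliphatic and indole glucosinolates, flavonoid and anthocyanin, gibberellin, wall loosening, sugar starvation and darkness, and RNA-directed DNA methylation. Alternatives were RLE and total-count scaling, no filter or 1 CPM in 2 libraries, DESeq2 1.42.0, limma-voom (limma 3.58.1), fits of 2 genotypes alone, a block for the replicate number, omission of each library, and omission of overlapping members. Removal of the length trend, of mitochondrial-like genes, of copies and of short transcripts, the held-out replicate, the addition of overlapping counts and the family of splicing factors were added after seeing the data.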

Additional observations from a re-analysis of the deposited data

How the results depend on the processing

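The rule gave 42 genes at a ratio of 2, 55 with a floor of 5 FPKM, 265 on TMM-scaled CPM (111 of them among the 127) and 75 without overlapping genes, and between 117 and 192 with a library left out, the 192 without replicate 1 of Col. Members called lower in fha2 numbered 36 to 74 against Col with a library left out, 77 to 108 against rlt1/2 and 116 to 124 against chr11/17. Leaving out overlapping members kept 75 genes and gave 58, 68 and 73 of them lower in fha2 than in Col, rlt1/2 and chr11/17, 35 higher in chr11/17 than in Col and 30 higher in chr11/17 than in rlt1/2. Of the 58 members of at least 1000 bases, 49 were lower in fha2 than in Col, 24 were higher in chr11/17 and 14 higher in rlt1/2 than in Col, and 1 was lower in rlt1/2. With total counts 1 member was lower in chr11/17 and 2 in rlt1/2 than in Col, and the list genes gave 30 lower and 121 higher in fha2. With a library left out, chr11/17 against Col gave 51 to 61 higher and 1 to 5 lower, rlt1/2 against Col 14 to 29 higher and 3 to 9 lower, and chr11/17 against rlt1/2 39 to 65 higher and 4 to 15 lower. Adding overlapping counts turned AT3G63215 to 0.13 and SRO5 to 0.02 (log2, fha2 over Col). Correlations of the deviations of same-numbered libraries between genotypes ran from -0.22 to 0.21. With 2 libraries per genotype, these correlations cannot settle whether the numbers pair the samples. With the replicate block 102 members were lower in fha2 than in Col, 60 higher in chr11/17 and 27 higher in rlt1/2 than in Col. For single genes named, 853 of the values under alternatives stayed on their side of the threshold or within 1 SE, 87 moved, 33 lost their call in a double mutant and 2 turned direction. Genes with few counts, such as PLS with 4 counts in each fha2 library, limit how deep a fall can be measured.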
